A study of Mus musculus with 2 samples.

Results

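Zic1, Zic2, Zic4 and Zic5 encode zinc finger transcription factors of the Zic family, and their UMIs were followed here in nuclei of fetal mouse brain. The members were the rows of the deposited feature table whose symbol was Zic1, Zic2, Zic4 or Zic5, which gave 4 genes of 55416 features. The study profiled single nuclei of frozen whole brain from wildtype fetuses and from fetuses with a knockout of Cav1, the gene of a protein of small pits in the plasma membrane, with 1 library each. Its title names metabolic programming. The labels give no strain, embryonic day, knockout allele or number of animals for either library. Unique molecular identifiers (UMIs), which count each captured RNA once, were added up over nuclei with at least 500 detected genes and at most 5% mitochondrial UMIs, and a level in CPM is the number of UMIs of a gene divided by all UMIs of the same nuclei, times 1000000.

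These filters kept 6686 nuclei with 17205381 UMIs in the wildtype library and 6680 nuclei with 19878903 UMIs in the knockout library, with medians of 2133.5 and 2366 UMIs per nucleus, and 10 barcodes occurred in both. Cav1 itself had 71 UMIs (4.13 CPM) in the wildtype and 80 UMIs (4.02 CPM) in the knockout library. The deleted part of the gene is not given in the labels, so this 3′ count cannot check them, and the libraries are called wildtype-labelled and knockout-labelled below. In endothelial nuclei Cav1 had 12 UMIs over 39 nuclei and 1 UMI over 52 nuclei. The libraries also differed in regional markers, with 7 against 461 UMIs of 9 hindbrain genes and 335 against 1365 UMIs of 7 isthmic genes. Differences of members between the libraries with an interval off 0 are therefore given also without nuclei that held such a UMI. This choice was made after seeing the data. With 1 library per genotype no test between genotypes exists, and all intervals are 95% intervals that cover counting error only.

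Zic proteins carry zinc fingers related to those of the GLI factors of Hedgehog signalling. They are known from the dorsal neural tube, the dorsal midline of the forebrain, the cerebellum and the meninges, the connective tissue that wraps the brain. Zic1 and Zic4 act in cerebellar development, Zic2 in forebrain midline formation and in whether axons cross the midline, and Zic5 in neural tube closure and neural crest formation. The genes lie in head-to-head pairs. On the GRCm39 build with the GENCODE M39 annotation, Zic1 (ENSMUSG00000032368) occupied chr9:91240111-91247863 on the minus strand and Zic4 (ENSMUSG00000036972) chr9:91244149-91271402 on the plus strand. The gene bodies of this pair overlapped by 3715 bases and their exons by 172 bases. Zic5 (ENSMUSG00000041703) occupied chr14:122694190-122703089 on the minus strand and Zic2 (ENSMUSG00000061524) chr14:122711827-122717264 on the plus strand, with 8738 bases between their annotated starts. Whether the authors' counting used the strand is not given in the sources used here, so UMIs from the part shared by Zic1 and Zic4 cannot be assigned with certainty.

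Promoter windows of 300 bases are shown for Zic1 and Zic4 because this pair was the one most often found in the same nuclei. They come from RefSeq (table build GRCm38.p6, which matched 3 of the 4 members by symbol), read 5′ to 3′ on the gene's strand, and each matched GRCm39 at 1 place, chr9:91247772-91248071 for Zic1 and chr9:91250775-91251074 for Zic4. Capitals mark CCAAT and CACGTG, searched on both strands.
Zic1: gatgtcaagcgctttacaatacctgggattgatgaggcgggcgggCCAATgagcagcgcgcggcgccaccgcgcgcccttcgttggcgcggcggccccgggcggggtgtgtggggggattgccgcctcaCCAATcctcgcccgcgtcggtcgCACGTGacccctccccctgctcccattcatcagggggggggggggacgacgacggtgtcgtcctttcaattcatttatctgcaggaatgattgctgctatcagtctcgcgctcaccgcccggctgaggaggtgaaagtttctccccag
Zic4: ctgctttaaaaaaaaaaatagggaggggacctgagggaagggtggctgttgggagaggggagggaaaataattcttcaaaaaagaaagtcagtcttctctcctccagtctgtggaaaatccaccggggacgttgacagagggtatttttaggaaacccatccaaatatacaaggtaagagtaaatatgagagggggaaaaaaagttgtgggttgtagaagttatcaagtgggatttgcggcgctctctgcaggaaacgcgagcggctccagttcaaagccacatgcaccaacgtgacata
The Zic1 window held CCAAT at 2 places and CACGTG at 1 place, while the Zic4 window held neither. Among 32544 promoter windows of the same length, 37.4% held CCAAT and 7.17% held CACGTG. The letters CCTGCTG, a core of reported Zic binding motifs, occurred in neither window and in 10.5% of all windows. The TATA box letters TATAAA were also found in neither, against 13.6% of all windows. The windows were 65.3% and 46.0% G or C. These matches describe letters and no binding. The RefSeq start of Zic4 lies inside the gene body annotated by GENCODE, so the window is not the region between the annotated starts of the pair.

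Nuclei were placed in classes by the number of distinct marker genes detected, with no member among the markers. The meningeal gate (3 or more of 18 genes of fibroblasts, such as Col1a1 and Foxc1) held 115 wildtype-labelled and 141 knockout-labelled nuclei. The gate for Cajal-Retzius neurons, the early cells of the cortical surface, required Trp73 and held 41 and 44 nuclei. The gate of dividing and radial progenitors, with markers such as Sox2 and Pax6, held 685 and 616 nuclei and the neuron gate 4593 and 4580. Smaller gates held choroid plexus epithelium, the secretory lining of the ventricles (55 and 61 nuclei), mural cells of vessels (20 and 36), endothelium (39 and 52) and microglia or macrophages (24 and 21). Their own markers were high where named: meningeal markers summed to 2713 and 2989 CPM in the meningeal gate against 74.8 and 63.2 CPM in neurons, and all 18 were detected there. Of these nuclei 30 and 42 held just the 3 markers required, and 143 and 150 nuclei outside the gate held 1 marker fewer. The meningeal gate also held neuron markers, at 3819 and 4295 CPM against 6720 and 7185 CPM in neurons. The choroid plexus gate held neuron markers at 3129 and 4347 CPM. Its own markers summed to 5222 and 5916 CPM there, against 278 and 285 CPM in neurons. At least 1 UMI of a choroid plexus marker was found in 48.1% and 53.3% of all kept nuclei.

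All 4 members were higher in meningeal nuclei than in neurons in both libraries. Zic1 stood at 301 CPM (253 to 355) in wildtype-labelled and 228 CPM (192 to 269.7) in knockout-labelled meninges, against 69.5 and 96.7 CPM in neurons, a fold of 4.33 (3.60 to 5.18) and 2.36 (1.97 to 2.81). Zic4, its head-to-head partner, stood at 205 CPM (166 to 250.3) and 194 CPM (160.5 to 232), against 45.2 and 56.0 CPM in neurons, 4.54-fold and 3.46-fold. Zic2 stood at 55.5 and 55.9 CPM in meninges against 7.29 and 9.04 CPM in neurons, 7.62-fold (4.73 to 11.9) and 6.18-fold (4.11 to 9.07). Zic5 stood at 32.0 and 36.2 CPM against 8.49 and 8.49 CPM, on 15 and 22 meningeal UMIs. Thus 4 of 4 members were at least 2-fold higher in both libraries with intervals above 0 on the log2 scale, a rule that 5.65% of 15528 genes met.

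Members were detected in most meningeal nuclei: 78 of 115 (67.8%) and 95 of 141 (67.4%) held at least 1 UMI of a member. Zic1 was found in 62 (53.9%) and 70 (49.6%) of them, Zic4 in 51 (44.3%) and 61 (43.3%), Zic2 in 24 (20.9%) and 30 (21.3%), and Zic5 in 14 (12.2%) and 18 (12.8%). At 1000 UMIs per nucleus the Zic1 share was 27.4% (19.1 to 36.9) over 106 nuclei and 24.8% (17.7 to 33.0) over 133 nuclei. Another 9 and 8 meningeal nuclei were too shallow for it. In cortical excitatory neurons, taken as a class that should lack Zic1, that share was 3.36% and 4.40% at the same depth and 8.78% and 15.2% at their own depths, with medians of 2713 and 2998 UMIs there against 2560 and 3176 UMIs in meninges. The meningeal shares were thus above the shares in that class in both libraries.

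All 4 members were higher in nuclei with 5 or more meningeal markers than in nuclei with 0, as the plot by marker number shows. Zic1 stood at 78.2 and 105 CPM in nuclei with 0 meningeal markers and at 333 CPM (278 to 397) and 207 CPM (175 to 244) in nuclei with 5 or more. Zic2 went from 7.89 and 10.9 CPM to 66.7 and 56.8 CPM over the same range, and Zic5 from 9.24 and 10.6 CPM to 32.0 and 29.8 CPM. Levels between these ends did not rise at each step. With 3 markers, the number the gate requires, Zic1 stood at 83.2 and 158 CPM on 19 and 50 UMIs. With 4 markers it stood at 190 and 120 CPM. Restricting the meningeal gate to nuclei with more meningeal than neuron markers, a choice made after seeing the data, left 72 and 80 nuclei. There Zic1 stood at 538 and 383 CPM, Zic4 at 370 and 327 CPM, Zic2 at 102 and 111 CPM and Zic5 at 60.9 and 59.9 CPM.

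**Figure D1:**
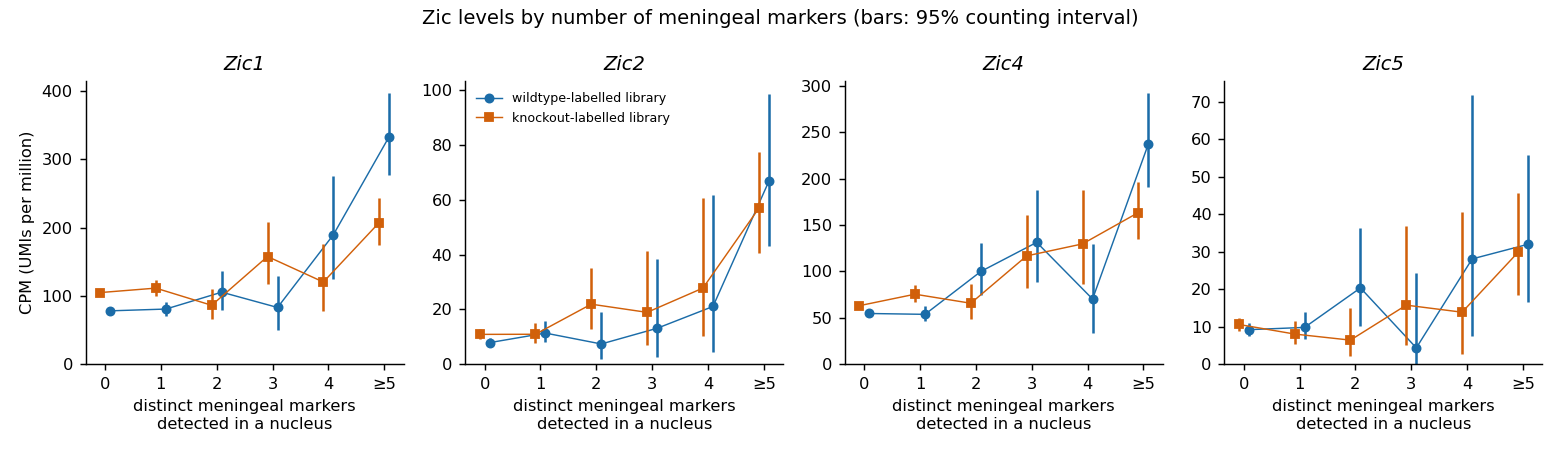
Level of each member (CPM, vertical axis, starting at 0) by the number of distinct meningeal markers in a nucleus, for wildtype-labelled nuclei (blue circles) and knockout-labelled nuclei (orange squares), with 95% counting intervals as bars. Levels with 5 or more markers lie above those with 0 markers for each member in both libraries.

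Zic1 and Zic4 were also high in choroid plexus epithelium and in mural nuclei. In choroid plexus epithelium Zic4 stood at 415 CPM (334 to 509.6) and 228 CPM (175 to 292), and Zic1 at 269 and 246 CPM. Both were at least 2-fold above neurons in each library, against 5.09% of all genes, while Zic2 (5 and 3 UMIs) and Zic5 (7 and 2 UMIs) were not. In mural nuclei Zic1 (13 and 35 UMIs, 240 and 328 CPM) and Zic4 (11 and 28 UMIs, 203 and 262 CPM) met the same rule, against 3.01% of genes. The mural gate also held meningeal markers, at 517 and 347 CPM. That compares with 74.8 and 63.2 CPM in neurons and 2713 and 2989 CPM in the meningeal gate. In mural nuclei Zic2 had 0 wildtype-labelled UMIs, which allows a level of up to 55.4 CPM, and Zic5 had 0 knockout-labelled UMIs, which allows up to 28.1 CPM.

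In Cajal-Retzius nuclei Zic2 was higher than in neurons, with 9 and 7 UMIs in 8 of 41 and 6 of 44 nuclei (46.1 and 30.7 CPM), 6.33-fold (2.80 to 12.5) and 3.40-fold (1.34 to 7.20) above neurons. It was 1 of 4 members to meet the rule there, against 1.37% of genes, and it rests on few UMIs. Zic1 stood at 128 and 110 CPM in these nuclei, 1.84-fold and 1.13-fold the level of neurons. Zic2 was also higher in endothelial nuclei, on 4 and 6 UMIs, against a background of 5.54% of genes. Barcodes left out by the gene minimum held Zic2 at 21.07 and 18.9 CPM, against 7.29 and 9.04 CPM in neurons. Those levels lay within the endothelial intervals (8.30 to 78.0 and 9.53 to 56.5 CPM) and the knockout-labelled Cajal-Retzius interval (12.4 to 63.3 CPM). The wildtype-labelled Cajal-Retzius interval (21.08 to 87.5 CPM) began just above the wildtype-labelled level. The part of free RNA in these Zic2 differences was not tested. In microglia or macrophages, which arise outside the brain, 0 of 4 members met the rule, against 2.15% of genes.

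Progenitors differed less from neurons. Zic1 stood at 96.4 CPM (81.9 to 113) and 128 CPM (111 to 146), 1.39-fold and 1.32-fold the neuron level, and Zic4 at 75.0 and 92.7 CPM, 1.66-fold and 1.65-fold. Zic5 stood at 16.5 and 22.1 CPM, 1.94-fold (1.22 to 2.98) and 2.60-fold (1.74 to 3.80). No member reached 2-fold with the interval above 0 in both libraries, against 9.85% of genes. Progenitors with telencephalic markers held Zic5 at 22.0 and 23.4 CPM on 19 UMIs in each library.

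Among neurons, the thalamic class (3 or more of Tcf7l2, Gbx2, Lef1, Lhx9, Shox2, Rorb and Slc17a6, 384 and 381 nuclei) held the most Zic1, Zic4 and Zic5 in both libraries. Zic2 was highest there in the wildtype-labelled library, at 17.8 CPM, while in the knockout-labelled library it stood at 15.3 CPM against 15.8 CPM, on 10 UMIs, in brainstem inhibitory neurons. Zic1 stood in thalamic neurons at 139 CPM (120.0 to 159.7) and 160.3 CPM (142 to 181), against 31.2 CPM (25.3 to 38.0) and 52.0 CPM (44.1 to 60.9) in cortical excitatory neurons. Zic4 stood at 134 and 115 CPM against 13.7 and 22.3 CPM, 9.77-fold (6.98 to 13.9) and 5.16-fold (3.88 to 6.92). Zic2 was 5.59-fold and 2.39-fold higher and Zic5 6.11-fold and 4.22-fold higher. All 4 members met the 2-fold rule between these classes, against 3.39% of genes. Forebrain inhibitory neurons met it for Zic1 (2.07-fold and 2.05-fold) and Zic4 (2.59-fold and 2.34-fold), against 2.2% of genes. Brainstem inhibitory and midbrain excitatory neurons met it for 0 of 4 members, against 2.89% and 2.09% of genes.

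**Figure D2:**
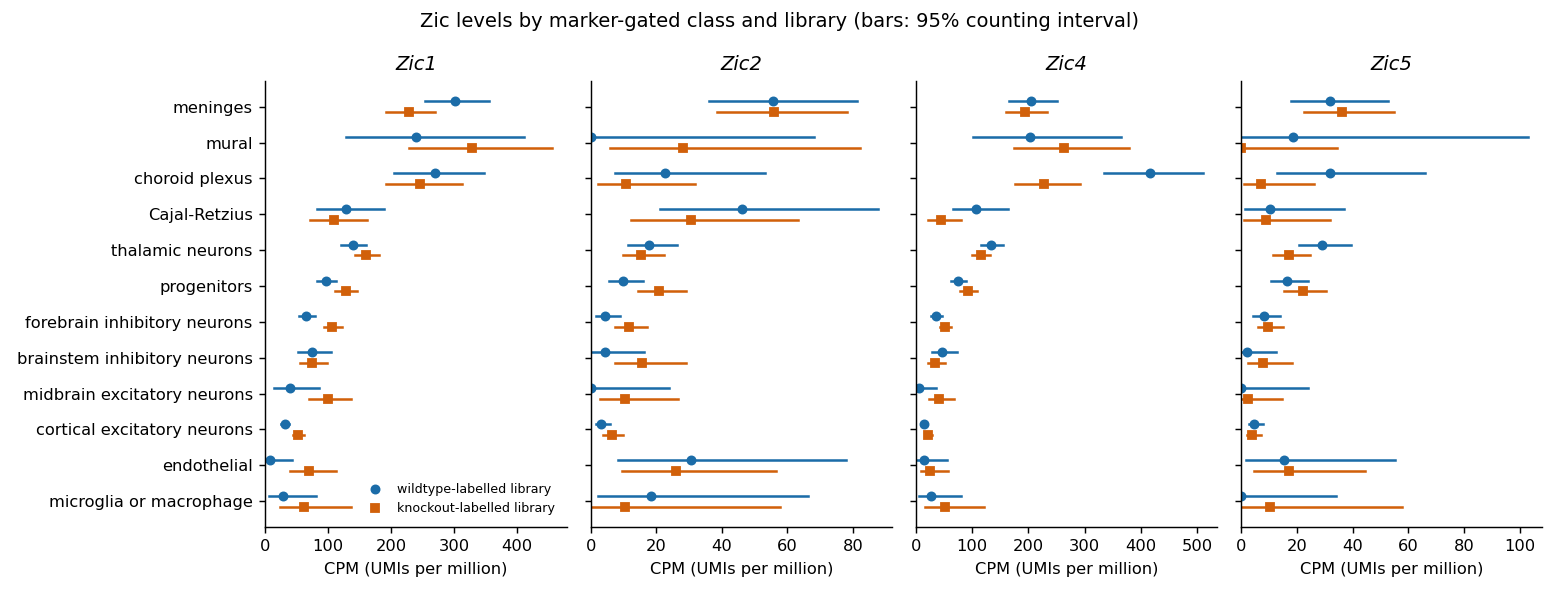
Level of each member (CPM, horizontal axis from 0, own scale per gene) in 12 classes of nuclei, for wildtype-labelled nuclei (blue circles) and knockout-labelled nuclei (orange squares), with 95% counting intervals as bars. Zic1 and Zic4 lie highest in meninges, mural nuclei and choroid plexus, and Zic2 lies highest in meninges.

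Most neighbours in the order of levels over these 12 classes could not be told apart. For Zic1 and for Zic4, meninges, mural nuclei and choroid plexus took the first 3 places in both libraries. Of 11 neighbouring pairs per gene and library, the intervals were apart for 0 and 1 pairs of Zic1 and for 1 and 2 pairs of Zic4, and for 0 pairs of Zic2 and Zic5. The pair apart for Zic1 was meninges and thalamic neurons in the knockout-labelled library. For Zic4 choroid plexus was apart from meninges in the wildtype-labelled library only, and in the knockout-labelled library meninges was apart from thalamic neurons and progenitors from forebrain inhibitory neurons. Over 30 sums (15 classes in 2 libraries, which share the library's depth and cell preparation), log2(CPM + 1) of Zic1 and Zic4 correlated with Pearson's r = 0.81, and the other 5 pairs of members had r between 0.14 and 0.49. The genes most like each member by this measure were A630012P03Rik for Zic1 (r = 0.81), Ehd1 for Zic2 (0.81), Kank1 for Zic4 (0.81) and Lrrc47 for Zic5 (0.81). So many genes were compared over 30 points that these coefficients serve only as a description.

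The balance within the Zic1 and Zic4 pair differed between classes. UMIs are not scaled by gene length here, so only the change of this share between classes is described. Zic1 made up 69.5% (61.2 to 77.0) and 70.0% (63.5 to 76.0) of the UMIs of the pair in cortical excitatory neurons, 50.9% (45.8 to 56.0) and 58.2% (53.6 to 62.8) in thalamic neurons, and 39.3% (31.5 to 47.6) and 51.9% (43.0 to 60.7) in choroid plexus. The intervals of choroid plexus and cortical excitatory neurons were apart in both libraries. In the barcodes left out for having fewer than 500 genes the share was 76.9% (72.3 to 81.0) and 78.5% (74.9 to 81.8), above the 58.5% and 61.0% of all kept nuclei. For the Zic2 and Zic5 pair, Zic2 made up 63.4% and 60.7% of the UMIs in meninges and 37.9% and 47.3% in thalamic neurons, with overlapping intervals (46.9 to 77.9 and 46.8 to 73.5 against 26.2 to 50.7 and 33.7 to 61.2).

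**Figure D3:**
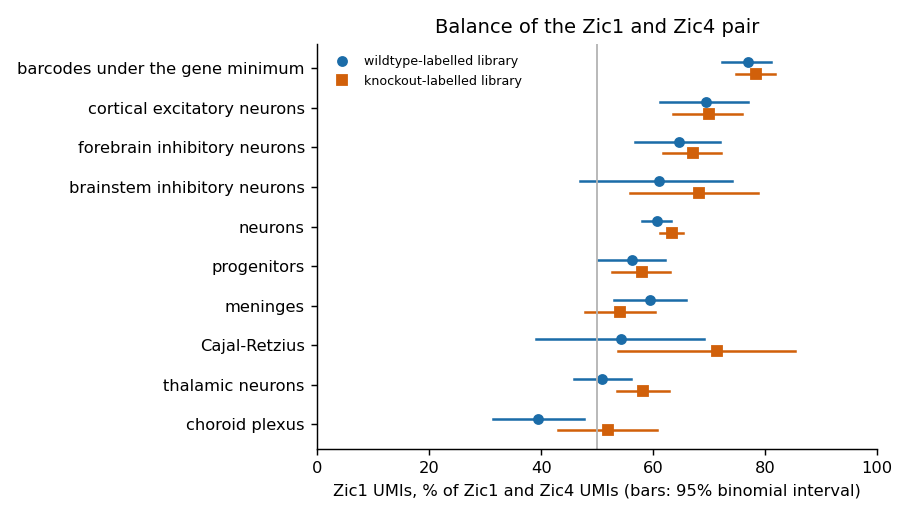
Zic1 UMIs as a percent of all Zic1 and Zic4 UMIs (horizontal axis, 0 to 100) by class, for wildtype-labelled nuclei (blue circles) and knockout-labelled nuclei (orange squares), with 95% binomial intervals as bars and a line at 50%. Barcodes under the gene minimum lie highest, at 76.9% and 78.5%, and choroid plexus lowest in each library, at 39.3% and 51.9%.

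The members occurred in the same nuclei. Of 612 nuclei with a Zic4 UMI in the wildtype-labelled library, 320 (52.3%) also held a Zic1 UMI, against 11.9% of nuclei without Zic4. In the knockout-labelled library the share was 60.0% of 767 nuclei against 15.2%. Zic2 nuclei held Zic4 in 38.0% and 48.7% of cases, against 8.43% and 10.1% of nuclei without Zic2. Zic2 and Zic5 shared 19 nuclei of 163 and 164, and 39 nuclei of 234 and 193. Zic5 was thus found in 11.7% and 16.7% of Zic2 nuclei, against 2.22% and 2.39% of nuclei without Zic2. Deeper nuclei hold more UMIs of every gene, so the pairs were compared again at 1000 UMIs per nucleus: Zic1 was found in 28.5% and 28.2% of Zic4 nuclei, against 6.75% and 8.18% of the others. Zic2 and Zic5 then shared 1 and 5 nuclei, too few to describe.

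Within the neuron and progenitor gates the Zic1 and Zic4 pair still went together in both libraries. In neurons at 1000 UMIs, 26.6% of 143 and 26.5% of 196 Zic4 nuclei held Zic1, against 5.95% and 7.40% of the others. In progenitors the shares were 28.6% of 42 and 31.7% of 41 Zic4 nuclei, against 5.80% and 11.8%. In meninges, where most nuclei held a member, they were 30.0% (11.9 to 54.3) of 20 and 44.0% (24.4 to 65.1) of 25, against 26.7% and 20.4%. The interval of the wildtype-labelled meninges thus held the share of the other nuclei. In choroid plexus at 1000 UMIs they were 38.9% (17.3 to 64.3) of 18 and 31.2% (11.0 to 58.7) of 16, against 24.3% and 10.0%. At their own depth, wildtype-labelled choroid plexus nuclei held Zic1 in 54.5% of nuclei with and without Zic4, and wildtype-labelled Cajal-Retzius nuclei in 37.5% of 16 with Zic4 against 40.0% without. The knockout-labelled shares were 65.5% against 43.8% in choroid plexus and 77.8% of 9 against 31.4% in Cajal-Retzius nuclei. Meningeal nuclei at their own depth held Zic1 in 76.5% (62.5 to 87.2) of 51 and 75.4% (62.7 to 85.5) of 61 nuclei with Zic4. The shares without Zic4 were 35.9% and 30.0%. Meninges thus showed the pairing in both libraries at their own depth, where differences in depth also enter. Choroid plexus and Cajal-Retzius nuclei did not show it in each library at their own depth.

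Members were concentrated in few nuclei. The wildtype-labelled library held 2882 member UMIs, and 317 nuclei (4.74%) with 3 or more of them carried 1455, or 50.5%. In the knockout-labelled library 497 nuclei (7.44%) carried 2478 of 4067, or 60.9%. Of these nuclei 166 and 309 passed the neuron gate, 43 and 48 the meningeal, 41 and 53 the progenitor and 25 and 20 the choroid plexus gate. Meningeal nuclei were 13.6% and 9.66% of them but 1.72% and 2.11% of all nuclei. The highest count in a nucleus was 13 UMIs, in wildtype-labelled meninges, and 26 UMIs, in knockout-labelled choroid plexus. That choroid plexus gate held 136 member UMIs over 61 nuclei. Nuclei with 3 or more member UMIs were deeper, with medians of 3344 and 3931 UMIs against 2040 and 2200 in nuclei with none. In the knockout-labelled library 80 of 646 neurons with an isthmic or hindbrain marker (12.4%) held 3 or more member UMIs, against 229 of 3934 without (5.82%), and in the wildtype-labelled library 8 of 157 (5.10%) against 158 of 4436 (3.56%).

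Neurons with 3 or more member UMIs were then set against neurons with none. This cut was chosen after seeing the data, and folds are of CPM within each library. The 2 groups were different mixes of neuron classes. Thalamic neurons were 63 of 166 and 78 of 309 with 3 or more, against 201 of 3663 and 213 of 3439 with none. Cortical excitatory neurons were 10 and 25 of those with 3 or more, against 867 and 630 of those with none. The part of these mixes in the folds was not tested. A gene was counted when it was at least 2-fold higher in both libraries with intervals above 0 on the log2 scale, which 0.812% of 15524 genes did. The genes around both loci stood out: all 4 genes tested within 500 kb of the start of Zic1 or Zic4, and 4 of 9 around Zic2 and Zic5, were counted. Gm29478, a long noncoding RNA 37.7 kb from the nearest start of the Zic1 and Zic4 pair, stood at 460 CPM in wildtype-labelled neurons with 3 or more member UMIs and 4.98 CPM in those with none, and at 263 and 6.84 CPM in the knockout-labelled library. Gm5089 (ENSMUSG00000115263), a noncoding RNA 14.5 kb from the nearest start of the Zic2 and Zic5 pair, stood at 274 against 12.1 CPM and 211 against 10.2 CPM. Clybl, a mitochondrial enzyme gene 63.4 kb away, was 23.5-fold and 10.7-fold higher. 2610035F20Rik, also counted, overlaps Zic2 on the opposite strand, so its UMIs and those of Zic2 may not be separate. Ubac2 and Tm9sf2, 440 and 306 kb away, were between 0.955-fold and 1.28-fold. In progenitors 4 of 4 and 2 of 9 neighbours were counted, against 0.728% of genes. In meninges 1 of 4 and 4 of 9 were counted, against 0.799% of genes. The meningeal groups also differed in the balance of meningeal and neuron markers, as given below.

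Away from the loci, Robo3, a receptor that sets when axons cross the midline, stood at 62.1 against 3.81 CPM and 81.6 against 5.95 CPM in the same comparison of neurons, 16.3-fold (10.3 to 26.1) and 13.7-fold (10.1 to 18.9). Ror1, a receptor for Wnt ligands, was 5.88-fold and 6.01-fold higher. Robo3, Ror1 and the genes near the loci were named after their values were seen. The different mixes of neuron classes given above apply to these folds as well.

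Genes of the dorsal midline, roof plate and cortical hem went with the members in progenitors. Of the 17 listed genes 11 had enough UMIs, and 6 of these were counted as higher in progenitors with any member UMI, against 0.367% of all genes. The median log2 ratio of the 11 was 1.95 and 2.42, against -0.03 and -0.02 over all genes. Rspo3, a secreted enhancer of Wnt signalling, had 63 UMIs in 159 wildtype-labelled progenitors with a member UMI and 25 in 526 without, 6.90-fold higher, and 98 UMIs in 192 against 7 in 424 knockout-labelled progenitors, 24.9-fold higher. Rspo2, of the same family, was 3.87-fold and 8.14-fold higher and Lmx1a, a roof plate transcription factor, 2.33-fold and 18.7-fold. With 3 or more member UMIs, 7 of 11 were counted, against 0.728% of genes. In neurons fewer of the list were counted: 2 of 11 with any member UMI, Lmx1a and Rspo2, against 0.444% of genes, and 2 of 11 with 3 or more, Rspo2 and Rspo3, against 0.812%. Wnt2b, a hem ligand, was not counted in progenitors, at 1.43-fold and 0.427-fold with any member UMI.

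**Figure D4:**
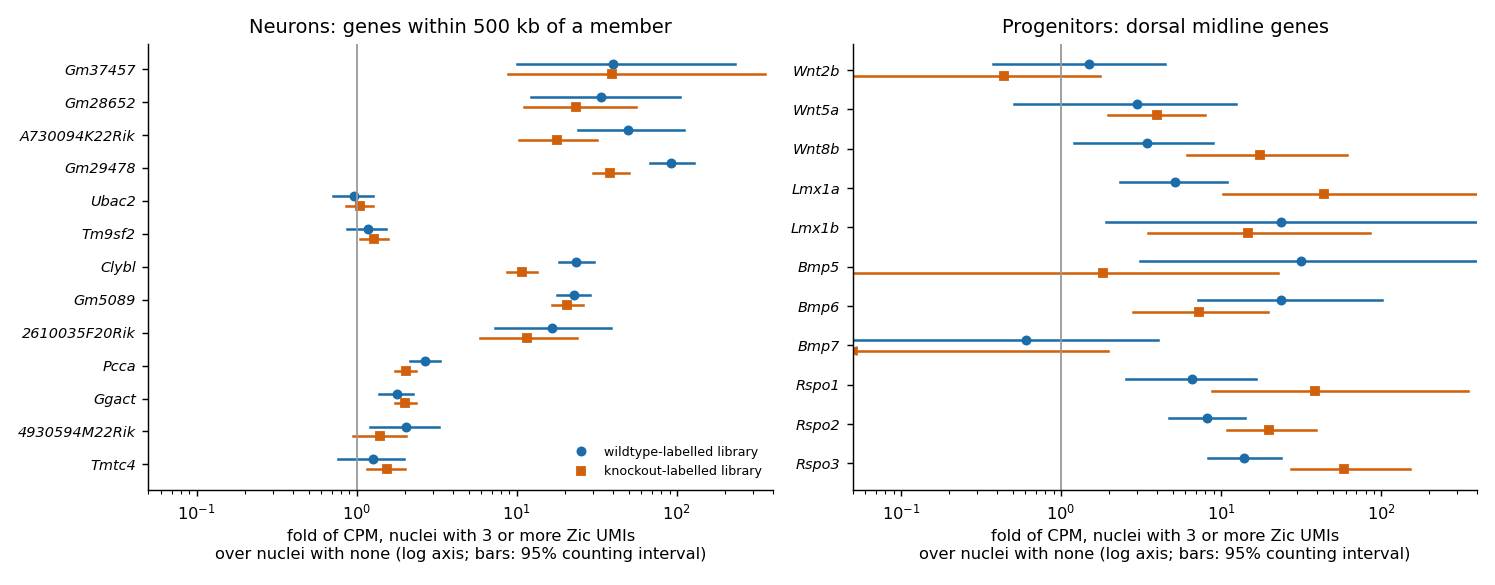
Fold of CPM (log axis) in nuclei with 3 or more member UMIs over nuclei with none, for wildtype-labelled nuclei (blue circles) and knockout-labelled nuclei (orange squares), with 95% counting intervals as bars that may run past the axis. Left, neurons, for 13 genes within 500 kb of a member, where Gm29478 lies at 92.5-fold and 38.4-fold. Right, progenitors, for 11 dorsal midline genes, where Rspo3 lies at 13.9-fold and 58.9-fold, and a left-pointing mark shows a count of 0.

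Over all nuclei the list gave 8 of 11 genes, against 1.78% of all genes. The 4 with the most UMIs were Rspo3 (2.31-fold and 2.11-fold), Bmp6 (11.3-fold and 6.66-fold), Rspo2 (5.04-fold and 4.20-fold) and Lmx1a (4.34-fold and 3.81-fold), and Bmp5 had the highest folds of the 8, 17.0-fold and 10.2-fold. Classes were mixed in that comparison. In meninges 3 of 11 were counted between nuclei with 3 or more member UMIs and nuclei with none, against 0.799% of genes. These were Bmp5, Bmp6 and Bmp7, ligands of the BMP pathway. The 2 groups also differed in neuron markers. Of nuclei with none, 12 of 37 and 19 of 46 held more meningeal than neuron markers, against 33 of 43 and 33 of 48 with 3 or more. The part of this difference in the folds was not tested. Bmp6 had 162 UMIs in 43 nuclei against 6 in 37 wildtype-labelled nuclei, and 122 in 48 against 23 in 46 knockout-labelled nuclei, 11.2-fold and 3.69-fold higher in CPM. The other lists gave fewer genes over all nuclei. Of GLI-related zinc finger genes 2 of 6 were counted, Glis1 and Glis3. Of septal genes 2 of 8 were counted, Wnt8b, which the dorsal midline list also holds, and Fgf15, and of genes of the rhombic lip and granule cell lineage 1 of 8, Reln. Of genes reported as bound or regulated by Zic proteins 0 of 5 were counted over all nuclei, and Pax3, a dorsal neural tube factor, was counted in neurons (2.83-fold and 2.35-fold), against 0.444% of genes.

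Between the libraries, 3 members were higher in the knockout-labelled library and none reached 2-fold. Zic1 had 1482 UMIs (86.1 CPM, 81.8 to 90.6) in the wildtype-labelled and 2187 UMIs (110.0 CPM, 105 to 115) in the knockout-labelled library. Its log2 ratio was 0.35 (0.26 to 0.45). Zic4 had 1051 UMIs (61.1 CPM) and 1401 UMIs (70.5 CPM), with the log2 ratio at 0.21 (0.09 to 0.32). Zic2 had 172 and 264 UMIs (10.0 and 13.3 CPM), with the log2 ratio at 0.41 (0.13 to 0.70), and Zic5 177 and 215 UMIs (10.3 and 10.8 CPM), with the log2 ratio at 0.07 (-0.22 to 0.37). The interval was off 0 for 3 of 4 members, all above 0, against 26.4% of 15528 genes off 0 and 13.2% above 0. Differences of at least 2-fold were found for 0 of 4 members and 0.483% of genes. The median log2 ratio of all genes was -0.01. Of the dorsal midline genes 1 of 11 was at least 2-fold apart, and of the other lists 0 genes were. That gene was Lmx1b, at a log2 ratio of 1.42 (1.01 to 1.85) on 65 and 201 UMIs. It was also a marker of the midbrain excitatory class, and its ratio is not given without isthmic or hindbrain nuclei.

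Without nuclei that held a UMI of an isthmic or hindbrain marker, the log2 ratios were 0.30 (0.19 to 0.40) for Zic1, 0.38 (0.08 to 0.68) for Zic2, 0.21 (0.09 to 0.34) for Zic4 and 0.18 (-0.13 to 0.49) for Zic5. That left out 202 wildtype-labelled and 909 knockout-labelled nuclei. The left-out nuclei held Zic1 at 73.2 CPM (55.3 to 95.1) and 123 CPM (113 to 134). Differences between the pieces of tissue sampled and between genotypes cannot be told apart with 1 library each.

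Within classes the direction varied. In neurons Zic1 stood 0.48 (0.35 to 0.60) and Zic4 0.31 (0.15 to 0.47) higher on the log2 scale in the knockout-labelled library, and Zic5 at 0.00 (-0.39 to 0.39). The interval was off 0 for 2 of 4 members in neurons, against 22.8% of genes. Without isthmic or hindbrain nuclei it was 0.41 (0.28 to 0.54) for Zic1 and 0.32 (0.15 to 0.48) for Zic4 in neurons. Cortical excitatory neurons, where Zic1 was taken as background, were at 0.74 (0.36 to 1.12) for Zic1 and 0.70 (0.13 to 1.29) for Zic4, 2 of 4 members off 0 against 12.8% of genes, and the part of free RNA in the difference was not tested. They were at 0.66 (0.27 to 1.07) and 0.63 (0.02 to 1.25) without isthmic or hindbrain nuclei. In forebrain inhibitory neurons 3 of 4 members were off 0, against 14.6% of genes, with Zic1 at 0.72 (0.38 to 1.07), Zic4 at 0.56 (0.08 to 1.05) and Zic2, on 7 and 24 UMIs, at 1.41 (0.15 to 2.87). Without isthmic or hindbrain nuclei these were 0.67 (0.31 to 1.03), 0.55 (0.06 to 1.05) and 1.37 (-0.02 to 2.99). In midbrain excitatory neurons Zic1, on 6 and 38 UMIs, was at 1.35 (0.10 to 2.88), where 21% of 967 genes were off 0, and at 0.87 (-0.53 to 2.49) without isthmic or hindbrain nuclei. In thalamic neurons Zic1 was at 0.21 (-0.06 to 0.48), Zic4 at -0.22 (-0.52 to 0.08) and Zic5 at -0.77 (-1.51 to -0.05, 41 and 29 UMIs), 1 of 4 members off 0 against 11.2% of genes. Without isthmic or hindbrain nuclei the thalamic value of Zic5 was -0.68 (-1.52 to 0.12). In progenitors Zic1 was at 0.41 (0.10 to 0.71) and Zic2, on 16 and 34 UMIs, at 1.10 (0.20 to 2.05), 2 of 4 off 0 against 12.7% of genes. Without isthmic or hindbrain nuclei the progenitor value of Zic1 was 0.17 (-0.16 to 0.51) and that of Zic2 1.06 (0.13 to 2.04).

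In meninges, choroid plexus and Cajal-Retzius nuclei, 1 member each had a log2 ratio below 0 with its interval off 0. In meninges Zic1 was lower in the knockout-labelled library by a log2 ratio of -0.40 (-0.75 to -0.05), or -0.38 (-0.74 to -0.02) without isthmic or hindbrain nuclei, while Zic4 was at -0.08 (-0.48 to 0.32), or -0.53 (-0.98 to -0.09) when the gate took 1 marker fewer, Zic2 at 0.01 (-0.77 to 0.80) and Zic5 at 0.17 (-0.84 to 1.23). That made 1 of 4 members off 0, against 21.1% of the 2507 genes with at least 100 UMIs in meninges. In choroid plexus Zic4 was at -0.86 (-1.35 to -0.38), on 91 and 63 UMIs, where 21.3% of 859 genes were off 0, and Zic1 at -0.13 (-0.65 to 0.40). Without isthmic or hindbrain nuclei Zic4 was at -1.13 (-1.80 to -0.50) there. In Cajal-Retzius nuclei Zic4 was at -1.29 (-2.54 to -0.14) on 21 and 10 UMIs, where 18.3% of 688 genes were off 0, and it was at -1.07 (-2.50 to 0.24) with 1 marker fewer and at -0.11 (-1.12 to 0.89) with 1 marker more in the gate. Without isthmic or hindbrain nuclei it was -1.66 (-3.28 to -0.28), on 19 and 6 UMIs. In endothelial nuclei Zic1 had 1 and 16 UMIs (7.62 and 69.2 CPM), under the 20 UMIs required for a ratio. Whether these differences vary between classes was not tested.

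**Figure D5:**
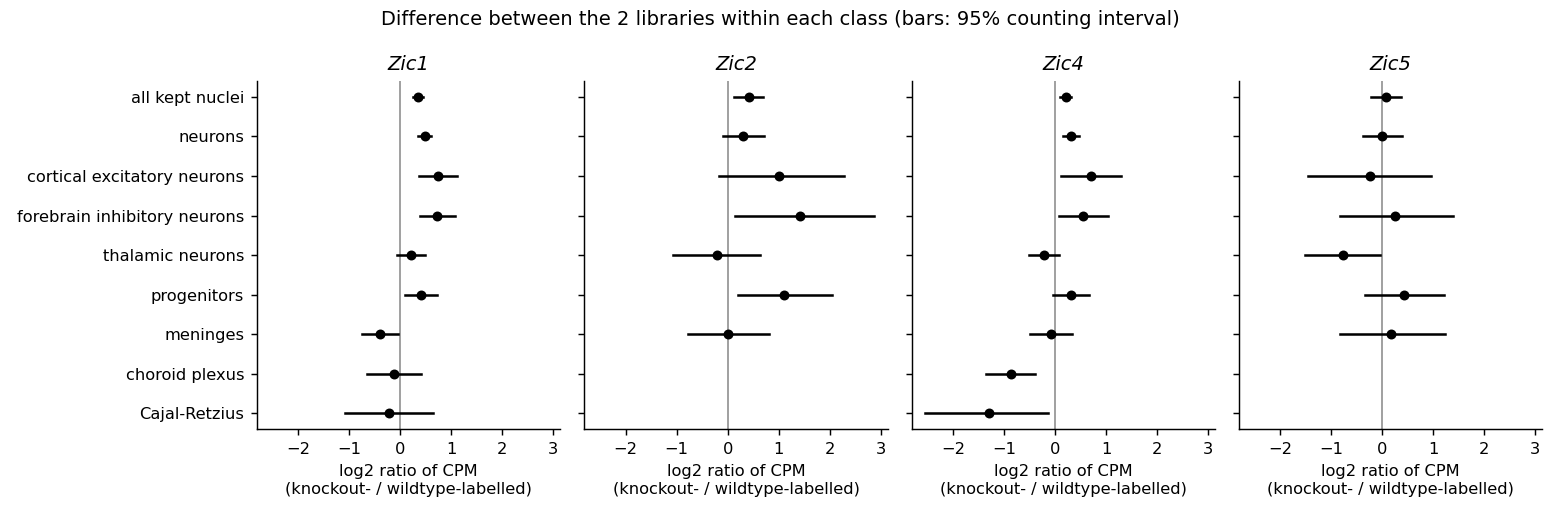
Log2 ratio of CPM, knockout-labelled over wildtype-labelled library (horizontal axis), for each member in all kept nuclei and in 8 classes, with 95% counting intervals as bars and a line at 0. Classes with fewer than 20 UMIs of a gene have no point. Zic1 lies at 0.48 in neurons and at -0.40 in meninges.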

How the data were processed

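Nuclei were isolated from frozen fetal brain with a nuclei kit and a sucrose cushion and sequenced with 10x Genomics 3′ v3.1 chemistry, per the labels' protocols. The deposited matrices hold UMI counts of each gene in each barcode. Per the file headers they come from Cell Ranger 6.1.1, while the submitters' processing notes name Cell Ranger 3.0.1, STAR and GRCm39. No count was normalized before deposit. The members, gene lists, marker lists and tests were chosen with earlier results of these data known, and the marker numbers required by each gate were set after the files were seen.

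Counts were summed by gate and library with Python 3.11.15, numpy 2.4.6, scipy 1.17.1 and pandas 2.3.3. CPM carry exact Poisson intervals, shares exact Clopper-Pearson intervals and ratios exact conditional binomial intervals, all at 95%, for counting error only. Gates took 3 or more distinct markers, or 4 or more for progenitors and neurons, which also had to exceed each other. Nuclei in several rare gates (29 and 44) and unassigned nuclei (1085 in each library) formed classes of their own. A gene was tested with at least 100 UMIs over both libraries, and a log2 ratio within a class is given from 20 UMIs. An upper limit for a count of 0 takes 3 counts. Where nuclei were compared at equal depth, each was thinned to 1000 UMIs with a fixed seed. Scrublet (scanpy 1.11.5) marked 1 nucleus per library and so did not work, and no doublets were removed. Up to 4 genes were named per list, those with the most UMIs past the fold; any other named gene was chosen after its values were seen. Calculations were tested on simulated data. Alternatives covered the filters, gates, depth, doublets and scaling.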

Additional observations from a re-analysis of the deposited data

Results flagged for a closer look

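Barcodes under the minimum of 500 genes, which were left out of the classes above, held UMIs of all 4 members. The 2969 such barcodes of the wildtype-labelled library (median 550 UMIs) held Zic1 at 176 CPM, Zic2 at 21.1 CPM, Zic4 at 53.0 CPM and Zic5 at 20.5 CPM. The 3904 of the knockout-labelled library (median 578 UMIs) held Zic1 at 199 CPM, Zic2 at 18.9 CPM, Zic4 at 54.6 CPM and Zic5 at 19.8 CPM. Kept nuclei stood at 86.1 and 110.0 CPM for Zic1, 10.0 and 13.3 CPM for Zic2, 61.1 and 70.5 CPM for Zic4 and 10.3 and 10.8 CPM for Zic5. Zic1 and Zic5 were higher in the shallow barcodes with intervals apart in both libraries. Zic2 was apart in the wildtype-labelled library (14.7 to 29.3 against 8.56 to 11.6 CPM) and overlapped in the knockout-labelled library (13.7 to 25.5 against 11.7 to 15.0 CPM). Zic4 was lower with intervals apart in the knockout-labelled library (45.4 to 65.1 against 66.8 to 74.3 CPM) and overlapped in the wildtype-labelled library (42.5 to 65.3 against 57.4 to 64.9 CPM).

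The log2 ratio of the knockout-labelled over the wildtype-labelled library took opposite signs in different classes, each with an interval off 0. Zic1 was at -0.40 in meninges and 0.48 in neurons. Zic4 was at 0.31 in neurons, -0.86 in choroid plexus epithelium and -1.29 in Cajal-Retzius nuclei. The Cajal-Retzius value rested on 21 and 10 UMIs, and its interval held 0 with 1 marker fewer or 1 marker more in the gate. The share of all genes with an interval off 0 was 21.1% in meninges, 22.8% in neurons, 21.3% in choroid plexus epithelium and 18.3% in Cajal-Retzius nuclei. With 1 library per genotype these differences between classes were not tested.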

How the results depend on the processing

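No alternative turned the direction of a value whose interval was off 0. No paired analysis was possible because each genotype has 1 library, which also leaves no replicate to omit. With gates of 1 marker fewer, meningeal Zic1 was 228 and 143 CPM, meningeal Zic4 161 and 111 CPM with a log2 ratio of -0.53, and wildtype-labelled Zic4 in neurons 40.0 CPM, while meninges made up 2.90% and 2.96% of nuclei. With 1 marker more, knockout-labelled meningeal Zic1 was 271 CPM and Zic2 86.8 CPM, and the log2 ratio of Zic4 in Cajal-Retzius nuclei was -0.11. Meninges, progenitors and neurons were then 1.29%, 8.11% and 60.0% of wildtype-labelled and 1.60%, 7.49% and 61.4% of knockout-labelled nuclei. In meninges with more meningeal than neuron markers, Zic1 was 538 and 383 CPM, Zic2 102 and 111 CPM, Zic4 370 and 327 CPM and Zic5 60.9 and 59.9 CPM. A minimum of 1000 genes gave 11.2% and 10.4% progenitors, 75.7% and 76.1% neurons and 2.50% knockout-labelled meninges. A minimum of 200 genes gave 1.34% and 1.46% meninges, 0.427% and 0.447% Cajal-Retzius nuclei, 8.15% and 6.84% progenitors and 54.2% and 52.4% neurons. The genes at least 2-fold apart between the libraries numbered 195 at a minimum of 50 UMIs and 42 at 200 UMIs, against 75. The causes were not tested, except that a gate or filter changes by construction which nuclei or genes are counted. Thinning to 1000 UMIs moved 41 of 44 shares and co-detection values, which fewer UMIs per nucleus lower by construction. Scaling by the median of gene ratios, leaving out the 8% of nuclei with the highest Scrublet scores and leaving out isthmic or hindbrain nuclei moved 0 values beyond their intervals.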
